A study of Mus musculus with 4 samples.

Results

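Sterol and fatty acid synthesis genes were followed in mouse embryonic stem cells (ESCs), which are pluripotent cultured cells derived from the inner cell mass of the blastocyst. The 33 symbols on the list named the enzymes of cholesterol and fatty acid synthesis with their main regulators. A row belonged to the set when its gene symbol, split at commas, held one of them, and 31 of the 14099 named rows did. Hmgcs1 is named only, since no row matched it, and Sc4mol is an older name of Msmo1, which was found. RNA selected with poly-dT was sequenced in 4 libraries. By their titles 2 are wild type (WT) and 2 come from knockout of Naa10 (Naa10-KO). Naa10 is the catalytic subunit of NatA, an enzyme complex that adds acetyl groups to protein N-termini. Both genotypes came from crosses of C57BL/6 females that carried the Naa10 knockout with WT JF1 males, so all lines were F1 hybrids of these strains and the WT lines were littermates. All cells grew in N2B27, a serum-free medium, with the Mek inhibitor PD325901, the Gsk3 inhibitor Chir99021 and LIF, for 5 passages on irradiated mouse embryonic fibroblast (MEF) feeders and 5 passages without them. The labels do not say whether the replicates of a genotype were independent lines or cultures of the same line, so p-values measure only the spread between these libraries, which may be technical.

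Cholesterol is built from acetyl-CoA through mevalonate, isoprenoid units, squalene and lanosterol, and fatty acids are built from the same acetyl-CoA through malonyl-CoA. Both pathways are switched on by the SREBP transcription factors, encoded by Srebf1 and Srebf2. Scap escorts SREBP from the endoplasmic reticulum to the Golgi for cleavage when sterols are scarce, and the Insig proteins hold it back when sterols are plentiful. The Insig1 gene is itself an SREBP target. SREBP acts at sterol response elements (SRE) and E-boxes, mostly together with NF-Y, a factor that binds the CCAAT box.

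Promoters of the 6 genes with the smallest unadjusted p in the comparison of genotypes are shown, because their levels set the genotypes apart most clearly within the set. Each is the 250 bases before a RefSeq start, 5′ to 3′ on the strand of the gene, from build GRCm38.p6. Capitals mark the CCAAT box (CCAAT, or ATTGG when it lies on the other strand) and the E-box (CACGTG).
Insig1, chr5:28071162-28071411, plus strand: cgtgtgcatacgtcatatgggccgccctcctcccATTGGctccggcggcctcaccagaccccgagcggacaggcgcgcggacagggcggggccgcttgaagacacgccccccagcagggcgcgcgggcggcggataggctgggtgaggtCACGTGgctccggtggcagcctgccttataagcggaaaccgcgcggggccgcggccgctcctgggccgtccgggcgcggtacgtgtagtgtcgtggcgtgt
Msmo1, chr8:64733579-64733828, minus strand: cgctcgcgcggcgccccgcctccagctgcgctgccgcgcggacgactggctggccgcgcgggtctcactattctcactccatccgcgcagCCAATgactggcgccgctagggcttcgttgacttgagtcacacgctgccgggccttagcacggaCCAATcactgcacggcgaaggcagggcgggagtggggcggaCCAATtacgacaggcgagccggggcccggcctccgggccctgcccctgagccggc
Fasn, chr11:120824548-120824797, minus strand: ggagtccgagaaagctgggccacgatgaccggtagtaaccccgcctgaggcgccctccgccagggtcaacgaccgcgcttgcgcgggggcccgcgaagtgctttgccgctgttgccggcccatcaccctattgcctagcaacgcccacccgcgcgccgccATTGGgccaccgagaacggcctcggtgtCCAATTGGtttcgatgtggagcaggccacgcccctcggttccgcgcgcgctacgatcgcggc
Idi1, chr13:8885356-8885605, plus strand: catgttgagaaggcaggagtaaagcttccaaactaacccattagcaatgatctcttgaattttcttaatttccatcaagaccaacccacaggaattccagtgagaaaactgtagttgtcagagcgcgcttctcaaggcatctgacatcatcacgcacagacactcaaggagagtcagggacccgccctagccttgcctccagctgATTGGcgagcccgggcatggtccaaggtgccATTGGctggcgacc
Lss, chr10:76531355-76531604, plus strand: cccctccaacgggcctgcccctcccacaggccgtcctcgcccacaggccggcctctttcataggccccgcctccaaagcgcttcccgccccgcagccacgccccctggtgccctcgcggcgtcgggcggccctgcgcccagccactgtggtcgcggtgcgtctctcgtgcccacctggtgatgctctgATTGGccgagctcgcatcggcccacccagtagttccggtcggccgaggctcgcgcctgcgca
Cyp51, chr5:4104698-4104947, minus strand: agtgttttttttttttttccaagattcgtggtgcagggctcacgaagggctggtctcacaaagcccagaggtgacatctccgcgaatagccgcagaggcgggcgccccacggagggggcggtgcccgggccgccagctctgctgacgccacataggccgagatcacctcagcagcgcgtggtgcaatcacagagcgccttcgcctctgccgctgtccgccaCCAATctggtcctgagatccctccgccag

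The table of RefSeq promoters held 31 windows of 300 bases (250 before and 50 after a start) for 25 of the listed genes, some with several starts. CCAAT occurred on either strand in 14 of the 18 windows of sterol enzymes, against 37.4% of all 32851 windows. By gene it was 14 of 15, for which no share over all genes was computed. It occurred in 3 of the 6 windows of fatty acid enzymes, those of Acly, Acss2 and Fasn. In Fasn a match on each strand overlapped, within the run CCAATTGG. Msmo1 and Fasn had 3 matches each before the start, Idi1 had 2, and Insig1, Lss and Cyp51 had 1. The E-box CACGTG occurred in 6 of the 31 windows, against 7.15% of all windows, and the 5 genes with it were Insig1, Scap, Dhcr7, Hsd17b7 and Sc5d. The Scap windows overlap and hold the same E-box, so that site is counted more than once. The SRE core TCACNCCAC occurred in 1 of the 31 windows, that of Hmgcs1, against 1.24% of all windows. Hmgcs1 had no row of levels. Only this string was searched for the SRE, so a window without it may still hold a site with other letters. These are matches of letters on both strands and not measured sites.

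Levels are in RPKM, the reads of a gene divided by its transcript length and by the mapped reads of the library, so levels can be set side by side between genes. The files give no read counts. The most common ratios between the values of short RNA rows put the depth of WT replicate 2, Naa10-KO replicate 1 and Naa10-KO replicate 2 at 1.02, 1.46 and 1.68 times that of WT replicate 1, an estimate that rests on 10 to 20 such rows per pair of libraries. The row that joins Naa10 with its neighbour Renbp had 105 and 106 RPKM in WT, compared with 28.9 and 34.4 RPKM in Naa10-KO (limma log2 change -1.71, SE 0.11, adjusted p = 0.0342), which is 27.5% and 32.7% of the WT mean. The share of Naa10 in this joined row cannot be separated, and the deleted part of the gene is not given in the labels. The WT libraries lay closer to each other than the Naa10-KO libraries, with a median absolute difference over the 11912 tested rows of 0.05 and 0.25 on the log2(RPKM + 1) scale. All 12 ESC markers were present, from a WT mean of 34.7 RPKM upward. The 20 fibroblast markers summed to 528 and 528 RPKM in WT, 1005 RPKM in Naa10-KO replicate 1 and 513 RPKM in Naa10-KO replicate 2. Of these markers, 17 were above both WT libraries in Naa10-KO replicate 1 and 17 were below both in Naa10-KO replicate 2. None was at 0, the lowest being Lum at 0.149 RPKM in Naa10-KO replicate 2. The ESC markers summed to 5138 and 5223 RPKM in WT, 4404 RPKM in Naa10-KO replicate 1 and 5309 RPKM in Naa10-KO replicate 2, with 8 of 12 below both WT libraries in replicate 1 and 10 of 12 above both in replicate 2.

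Most sterol enzymes had lower values in Naa10-KO, and among both sterol and fatty acid enzymes some genes differed more between the knockout libraries than between genotypes. The joint level of the 17 sterol enzyme rows was 646 and 635 RPKM in WT, 473 RPKM in Naa10-KO replicate 1 and 552 RPKM in Naa10-KO replicate 2. The 9 fatty acid enzyme rows summed to 400 and 395 RPKM in WT, 319 RPKM in Naa10-KO replicate 1 and 400 RPKM in Naa10-KO replicate 2. In bulk RNA, fewer cells of a type and less RNA per cell cannot be told apart. No gene of the set passed the test by itself: limma called 0 of 31 rows at adjusted p under 0.05, where 0.218% of all tested rows were called higher and 0.546% lower. The smallest adjusted p of the set was 0.103, for Insig1.

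At an unadjusted p under 0.05, limma had 11 of the 31 rows lower in Naa10-KO, where 13.2% of all tested rows were lower at that level. These were Acat2, Pmvk, Idi1, Fdps, Fdft1, Lss, Cyp51, Msmo1, Elovl6, Insig1 and Stard4. Fasn was the 1 row higher at that level, where 8.9% of all tested rows were. Both Naa10-KO libraries lay below both WT libraries in 17 of 31 rows, or 54.8%, against 34.9% of all tested rows. They lay above both in 4 rows (Fasn, Sc5d, Scap and Srebf1), or 12.9%, against 24.4% of all. With 2 libraries against 2, an exact permutation test of a single gene cannot go below a two-sided p of 0.333.

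**Figure D1:**
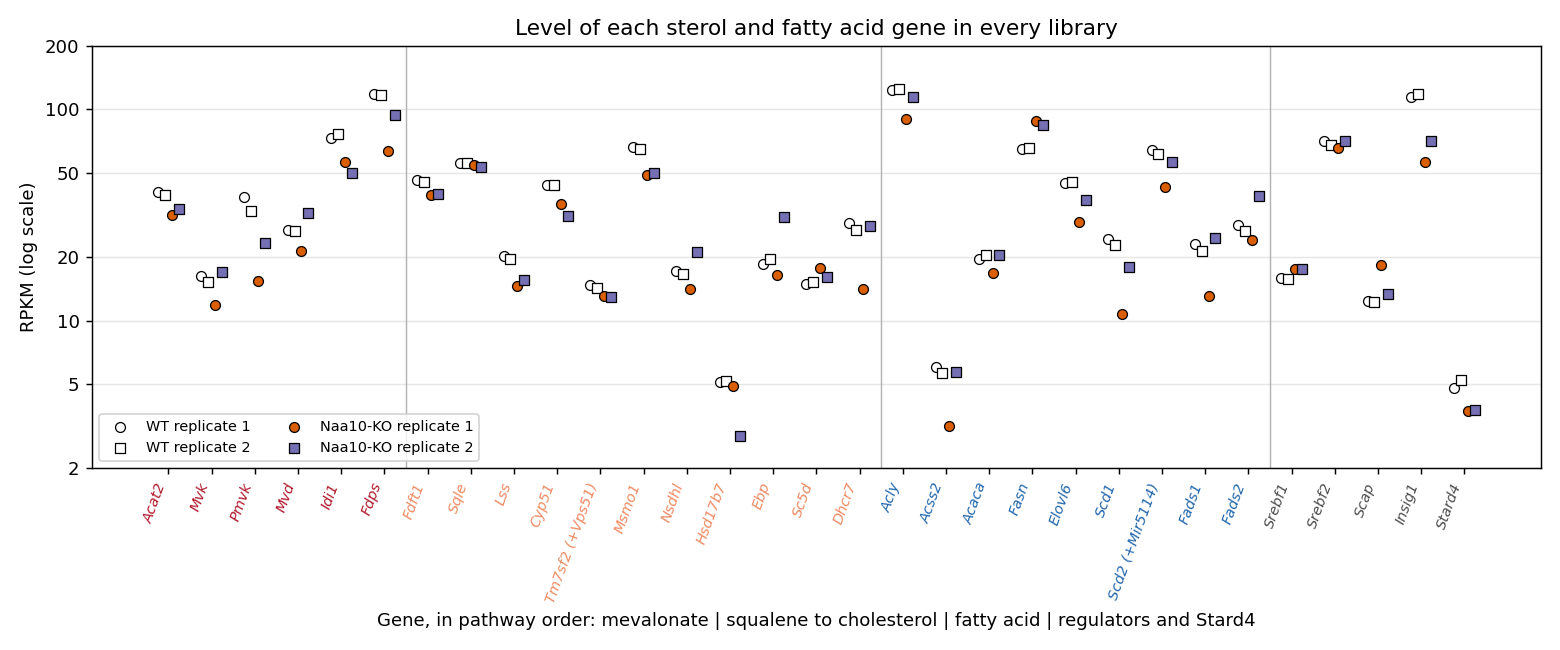
Level in RPKM (log axis) of each of the 31 rows in the 4 libraries, in pathway order; open symbols are WT, filled symbols Naa10-KO, circles replicate 1 and squares replicate 2. The WT symbols nearly coincide for most genes, and for Insig1, Idi1, Msmo1, Lss and Cyp51 both filled symbols lie below them.

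The first steps make mevalonate and the isoprenoid units. All 6 measured enzymes of this stretch had a lower mean log2 level in Naa10-KO, as had 6831 of all 11912 tested rows, and Mvd, at -0.02, was at 0.043 after median centring of each library. The median log2 difference of the 6 was -0.39, and over all tested rows it was -0.06. Acat2, which joins acetyl-CoA into acetoacetyl-CoA, had 40.6 and 39.3 RPKM in the WT pair and 31.5 and 33.8 RPKM in the knockout pair. Its groups did not overlap, and the log2 difference was -0.28 (SE 0.08, limma adjusted p = 0.174).

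Pmvk, which phosphorylates phosphomevalonate, had WT levels of 38.4 and 33.0 RPKM and knockout levels of 15.3 and 23.3 RPKM. It had the lowest log2 difference of the set, -0.88 (SE 0.23, limma adjusted p = 0.158), and both knockout libraries stood below WT, replicate 1 by the wider margin. Mvk and Mvd, the kinase before it and the decarboxylase after it, showed no such separation. Mvk had 16.2 and 15.3 RPKM in WT, compared with 11.9 and 16.9 RPKM in Naa10-KO. Mvd had 26.7 and 26.6 RPKM in the WT pair and 21.3 and 32.3 RPKM in the knockout pair. In both genes Naa10-KO replicate 1 lay below the WT libraries and replicate 2 above them. Their log2 differences had 95% confidence intervals of -0.67 to 0.40 for Mvk and -0.63 to 0.59 for Mvd.

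Idi1, the isomerase that balances the isoprenoid units, had WT levels of 73.5 and 76.6 RPKM and knockout levels of 56.1 and 49.8 RPKM. Here replicate 2 was the lower knockout library, and both stood under WT (log2 difference -0.50, SE 0.09, limma adjusted p = 0.120). Fdps, which makes farnesyl diphosphate at the branch between sterols and other isoprenoids, was the most abundant sterol enzyme, at 119 and 117 RPKM in WT. It had 63.3 and 94.6 RPKM in Naa10-KO, or 53.8% and 80.3% of the WT mean (log2 difference -0.60, SE 0.21, limma adjusted p = 0.224).

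Of the 11 rows from squalene to cholesterol, 7 had both Naa10-KO libraries below both WT libraries and 1 had both above. The shares over all tested rows were 34.9% and 24.4%. Fdft1, the squalene synthase, had 46.3 and 45.4 RPKM in WT, compared with 39.5 and 39.8 RPKM in Naa10-KO, 86.4% of the WT mean. Sqle, the epoxidase that acts on squalene and a rate-controlling step, had 56.0 and 55.9 RPKM in the WT pair and 54.5 and 53.3 RPKM in the knockout pair. The interval of the Sqle difference ran from -0.24 to 0.14 on the log2 scale, the difference was 0.012 after median centring, and the point estimate was the nearest to 0 of the 7 rows lower in both libraries.

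Lss, which closes the ring of lanosterol, had WT levels of 20.1 and 19.6 RPKM and knockout levels of 14.5 and 15.6 RPKM. Cyp51, the lanosterol demethylase, had 43.7 and 43.8 RPKM in WT, compared with 35.5 and 31.1 RPKM in Naa10-KO. Msmo1, the sterol C4 methyl oxidase, had 66.4 and 65.1 RPKM in the WT pair and 49.2 and 50.2 RPKM in the knockout pair. All 3 stood at about the same share of WT, 75.9% for Lss, 76.2% for Cyp51 and 75.6% for Msmo1. For Msmo1 the knockout libraries agreed as closely as the WT libraries did (log2 difference -0.40, SE 0.07, limma adjusted p = 0.114).

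In 2 of the 11 rows from squalene to cholesterol, Nsdhl and Ebp, the knockout libraries lay on opposite sides of WT. That is 18.2%, against 25.3% of all tested rows. The median absolute log2 difference between the knockout libraries was 0.13 for these 11 rows and 0.25 for all tested rows. Nsdhl, which removes the C4 carboxyl group, had WT levels of 17.2 and 16.6 RPKM and knockout levels of 14.1 and 21.02 RPKM. Ebp, the sterol isomerase, had 18.6 and 19.6 RPKM in WT, compared with 16.4 and 30.8 RPKM in Naa10-KO, so replicate 1 was below WT and replicate 2 stood at 161% of the WT mean. Its interval was correspondingly wide, from -0.66 to 1.12 on the log2 scale around a difference of 0.23 (SE 0.32, limma adjusted p = 0.686).

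Dhcr7, the reductase of the last step, had 29.1 and 26.8 RPKM in the WT pair and 14.2 and 28.0 RPKM in the knockout pair. Its log2 difference of -0.47 (SE 0.34, limma adjusted p = 0.465) rested on replicate 1, since replicate 2 lay between the WT libraries, and without replicate 1 it was 0.00090. Hsd17b7, the ketoreductase of the C4 demethylation, went the other way, with 5.14 and 5.17 RPKM in WT, 4.91 RPKM in Naa10-KO replicate 1 and 2.85 RPKM in Naa10-KO replicate 2. Without replicate 2 its log2 difference was -0.06, against -0.37 with both libraries. Sc5d, the sterol desaturase before Dhcr7, was the one sterol enzyme above WT in both libraries, at 14.9 and 15.2 RPKM in WT, compared with 17.7 and 16.1 RPKM in Naa10-KO (log2 difference 0.15, SE 0.10, limma adjusted p = 0.403). The row that joins Tm7sf2, a sterol reductase, with its neighbour Vps51 had 14.7 and 14.2 RPKM in WT, compared with 13.1 and 13.0 RPKM in Naa10-KO, and the genes in it cannot be separated.

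**Figure D2:**
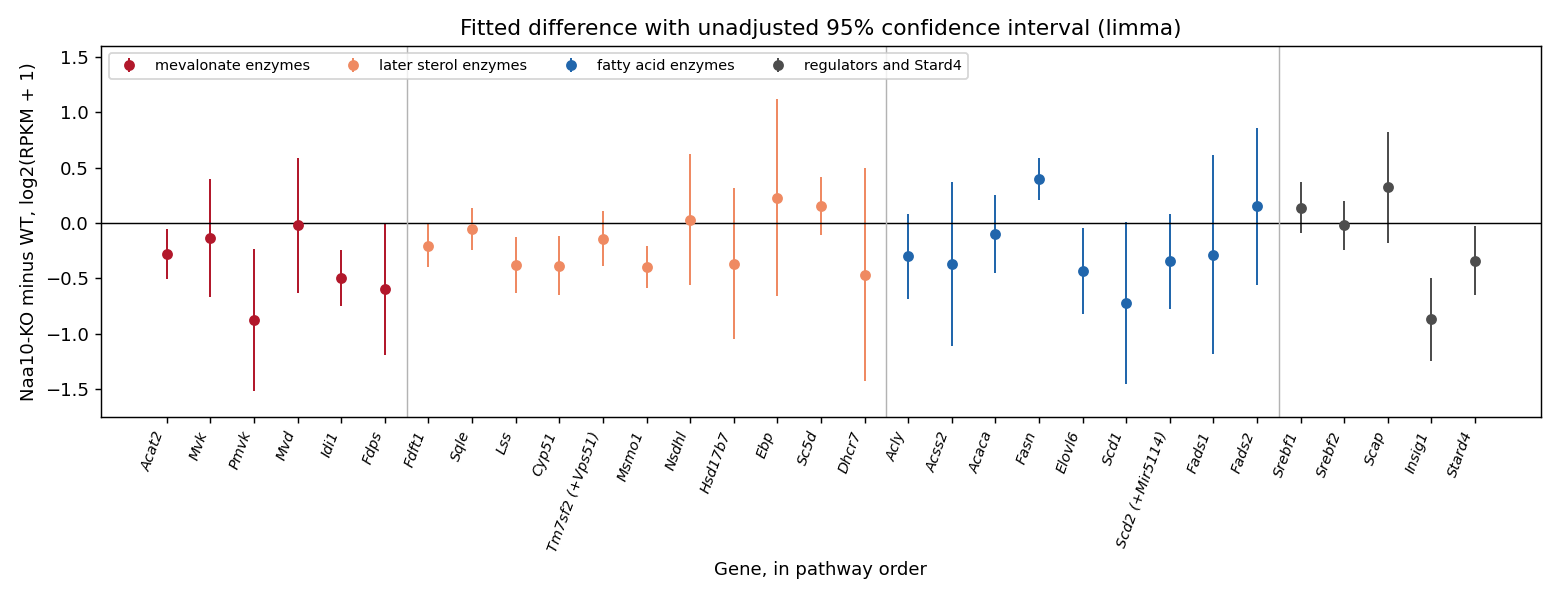
Naa10-KO minus WT on the log2(RPKM + 1) scale for each row in pathway order, as points with unadjusted 95% confidence intervals from limma (2 libraries per genotype). Intervals that stay below 0 belong to 11 rows, from Pmvk at -0.88 to Fdft1 at -0.21, and the one that stays above 0 belongs to Fasn at 0.40.

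Fatty acid synthesis starts from cytosolic acetyl-CoA, and the enzymes that supply it differed in how the knockout libraries stood. Acly, which makes acetyl-CoA from citrate, was the most abundant gene of the whole set in WT at 124 and 125 RPKM, and it had 89.7 and 114 RPKM in Naa10-KO. Acss2, which makes it from acetate, had 6.02 and 5.66 RPKM in the WT pair and 3.17 and 5.69 RPKM in the knockout pair. Acss2 was thus low in replicate 1 alone. Acaca, the carboxylase that commits acetyl-CoA to fatty acids, had WT levels of 19.6 and 20.4 RPKM and knockout levels of 16.8 and 20.6 RPKM.

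Fasn, the fatty acid synthase that builds palmitate, was the only fatty acid enzyme of the set above WT in both knockout libraries. It had 65.2 and 65.6 RPKM in WT, compared with 88.3 and 84.3 RPKM in Naa10-KO, 132% of the WT mean. Both knockout libraries exceeded WT by far more than either pair differed, yet the gene did not pass over all rows (log2 difference 0.40, SE 0.07, limma adjusted p = 0.116). Elovl6, which elongates palmitate, went the opposite way, with 44.9 and 45.2 RPKM in WT, compared with 29.5 and 37.4 RPKM in Naa10-KO (log2 difference -0.43).

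The desaturases were split between lower values in both libraries and opposite values. Scd1, which makes oleate, had 24.4 and 22.8 RPKM in the WT pair and 10.7 and 17.9 RPKM in the knockout pair, or 45.3% and 75.9% of the WT mean (log2 difference -0.72, SE 0.26, limma adjusted p = 0.229). Its paralog Scd2, in a row joined with Mir5114, was more abundant at 64.4 and 61.8 RPKM in WT and had 43.1 and 56.5 RPKM in Naa10-KO. Scd1 and Scd2 are related in sequence, and the labels do not say how reads shared by both were counted. Fads1, the delta-5 desaturase of polyunsaturated fatty acids, had WT levels of 23.1 and 21.4 RPKM and knockout levels of 13.1 and 24.7 RPKM. Fads2, the delta-6 desaturase, had 28.4 and 26.7 RPKM in WT, compared with 24.1 and 39.1 RPKM in Naa10-KO (log2 difference 0.15, SE 0.25, limma adjusted p = 0.739). Both Fads genes were below WT in replicate 1 and above it in replicate 2.

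Among the regulators, Insig1 stood out with the smallest p of the set. It had 115 and 118 RPKM in the WT pair and 56.4 and 71.1 RPKM in the knockout pair, or 48.4% and 61.0% of the WT mean (log2 difference -0.87, SE 0.13, 95% confidence interval -1.24 to -0.49, limma adjusted p = 0.103). The genes for the SREBP factors hardly differed. Srebf1 had WT levels of 16.0 and 15.7 RPKM and knockout levels of 17.5 and 17.6 RPKM (log2 difference 0.14, SE 0.08, limma adjusted p = 0.390). Srebf2 had 70.6 and 68.2 RPKM in WT, compared with 65.7 and 71.1 RPKM in Naa10-KO, with an interval of -0.24 to 0.20. SREBP activity is set by protein cleavage, which these RNA levels do not measure.

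Scap had 12.4 and 12.2 RPKM in WT, 18.4 RPKM in Naa10-KO replicate 1 and 13.3 RPKM in Naa10-KO replicate 2. Its log2 difference of 0.32 (SE 0.18, limma adjusted p = 0.362) was 0.10 without replicate 1. Stard4, a cytosolic carrier of cholesterol and a known SREBP target, was the least abundant gene of the set in WT by its mean, at 4.80 and 5.21 RPKM. It had 3.72 and 3.77 RPKM in Naa10-KO, 74.8% of WT, and its groups did not overlap (log2 difference -0.34).

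Taken one at a time, the knockout libraries differed in how many of the genes they placed below WT. In Naa10-KO replicate 1, 27 of 31 rows lay below both WT libraries, against 54.6% of all tested rows, and 4 lay above both, against 38.3%. In Naa10-KO replicate 2, 17 lay below both, against 48.3%, and 12 above both, against 41.8%, with Dhcr7 and Acss2 between the WT libraries. The knockout libraries lay on opposite sides of WT in 8 rows, or 25.8%, and in 25.3% of all tested rows. Within genotypes, the median absolute log2 difference over the 31 rows was 0.045 between the WT libraries and 0.34 between the Naa10-KO libraries. In each of the 8 rows on opposite sides (Mvk, Mvd, Nsdhl, Ebp, Acaca, Fads1, Fads2 and Srebf2) replicate 1 was the low one. How often replicate 1 was the low one among all tested rows on opposite sides was not computed.

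**Figure D3:**
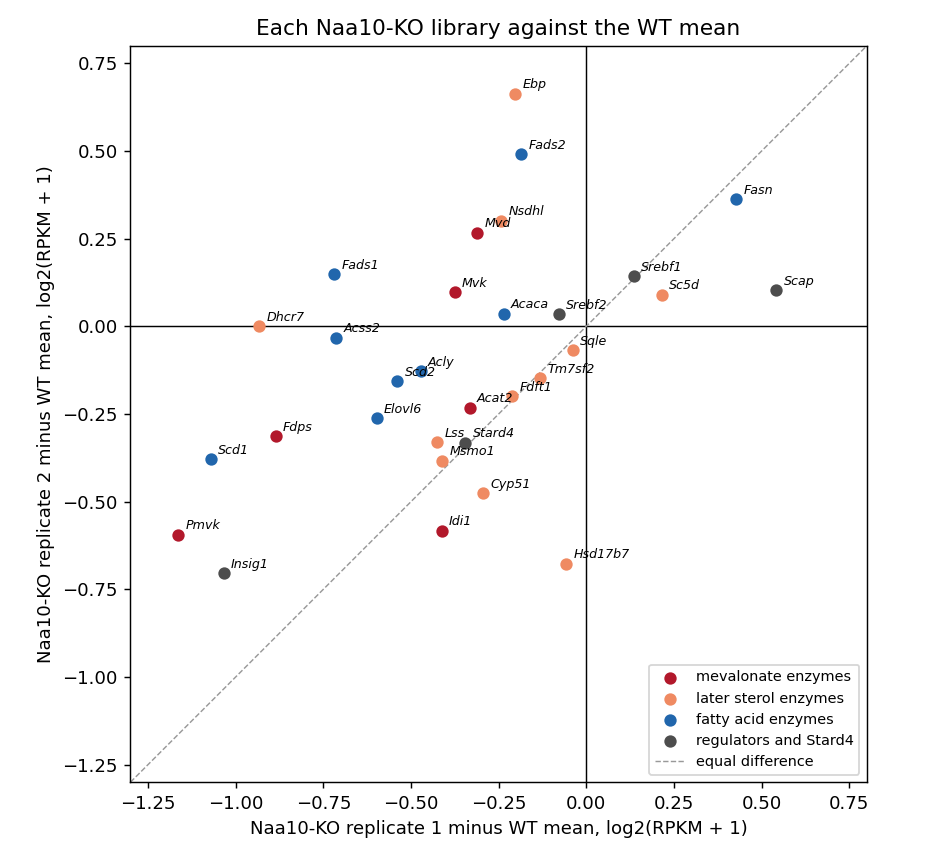
Difference of each Naa10-KO library from the WT mean on the log2(RPKM + 1) scale, replicate 1 on the x axis and replicate 2 on the y axis, 1 point per row coloured by role; the dashed line marks equal differences. Msmo1, Fdft1, Stard4 and Srebf1 lie near the line, while 8 of the 9 fatty acid enzymes lie above it and the 8 rows on opposite sides of both WT libraries lie in the upper left field, with Dhcr7 at its edge.

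Sterol and fatty acid enzymes had nearly the same median over both knockout libraries, and the order of the medians differed between the libraries. The median log2 difference was -0.28 for the 17 sterol rows and -0.30 for the 9 fatty acid rows. The gap of 0.02 between them lay within the spread of that gap between replicates (pooled SD 0.20, n = 2 per genotype). In Naa10-KO replicate 1 the medians were -0.31 for sterol and -0.54 for fatty acid enzymes, and in Naa10-KO replicate 2 they were -0.20 and -0.03. The medians of WT replicate 2 minus WT replicate 1 were -0.03 and -0.06. The sterol median thus lay in a narrower range over the knockout libraries than the fatty acid median. The SD pooled over both genotypes was 0.057 for sterol and 0.25 for fatty acid enzymes. Pooling with the closer WT pair puts these SDs below the spread of the knockout pair alone. Fatty acid enzymes were higher in Naa10-KO replicate 2 than in replicate 1 in 8 of 9 rows, Fasn being the exception, and sterol enzymes in 11 of 17, where 6490 of all 11912 tested rows were. The mevalonate enzymes among them differed between the knockout libraries as well, with 5 of 6 higher in replicate 2 and a median absolute log2 difference of 0.52, against 0.38 for the fatty acid enzymes and 0.13 for the later sterol enzymes. Fibroblast markers were high and ESC markers mostly low in Naa10-KO replicate 1, and the reverse held in replicate 2, as given above; their part in this split was not tested. The median of all tested rows was -0.08 in replicate 1 and -0.02 in replicate 2.

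The remaining genes of these pathways had medians nearer to that of all tested rows than the sterol and fatty acid enzymes had. Of 15 tested rows of other sterol and isoprenoid synthesis genes, limma called 0 at adjusted p under 0.05. At an unadjusted p under 0.05, 1 was higher and 2 were lower, where 8.9% and 13.2% of all tested rows were. The median log2 difference was 0.04. Both Naa10-KO libraries lay below both WT libraries in 4 rows and above both in 4, against 34.9% and 24.4% of all tested rows. Ggps1, which leads farnesyl diphosphate to protein prenylation, had WT levels of 15.2 and 15.4 RPKM and knockout levels of 12.6 and 12.5 RPKM. Pgrmc1, a heme protein that binds Cyp51, went the other way from Ggps1 at 33.8 and 35.4 RPKM in the WT pair and 53.4 and 53.3 RPKM in the knockout pair (limma adjusted p = 0.0841).

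Of 22 tested rows for sterol sensing, uptake, esterification and efflux, limma called 0 at adjusted p under 0.05. At an unadjusted p under 0.05, 2 were higher and 1 was lower, where 8.9% and 13.2% of all tested rows were. The median log2 difference was -0.08. Both Naa10-KO libraries lay below both WT libraries in 10 rows and above both in 5, against 34.9% and 24.4% of all tested rows. Mylip, a ubiquitin ligase of lipoprotein receptors and a target of the sterol-sensing LXR factors, had WT levels of 6.12 and 6.32 RPKM and knockout levels of 2.90 and 2.68 RPKM (log2 difference -0.93, limma adjusted p = 0.0841). Insig2, the second Insig gene, had 5.10 and 5.07 RPKM in WT, compared with 4.23 and 3.77 RPKM in Naa10-KO. Soat1, which esterifies cholesterol for storage, had 10.9 and 11.2 RPKM in the WT pair and 27.8 and 17.9 RPKM in the knockout pair (log2 difference 0.95, limma adjusted p = 0.151). Abca1, the cholesterol exporter and another LXR target, had WT levels of 2.45 and 2.33 RPKM and knockout levels of 4.08 and 3.18 RPKM. Mylip and Abca1 therefore stood on opposite sides of WT in both knockout libraries. Abcg1, of the same list, had 2.36 and 2.00 RPKM in the WT pair and 1.16 and 1.87 RPKM in the knockout pair. It was thus below WT in both, as Mylip was. LXR targets were not examined as a list.

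Of 29 tested rows of other fatty acid and glycerolipid synthesis genes, limma called 0 at adjusted p under 0.05. At an unadjusted p under 0.05, 1 was higher and 2 were lower, where 8.9% and 13.2% of all tested rows were. The median log2 difference was -0.17. The joined row of Acsl3, which activates fatty acids with coenzyme A, and Utp14b had 35.6 and 36.0 RPKM in WT, compared with 27.6 and 28.5 RPKM in Naa10-KO. Lpin1, a phosphatidate phosphatase, had 7.61 and 7.05 RPKM in the WT pair and 5.14 and 5.39 RPKM in the knockout pair. Mlx, the partner of the carbohydrate-responsive factor Mlxipl, had WT levels of 22.6 and 23.8 RPKM and knockout levels of 28.5 and 28.9 RPKM. Mid1ip1, which promotes polymerisation of Acaca, had 11.1 and 12.6 RPKM in WT, compared with 14.1 and 18.6 RPKM in Naa10-KO. These 4 rows were picked for the smallest unadjusted p in each direction. That their knockout and WT values did not overlap largely follows from this choice, and none passed over all rows. In the whole list, knockout values stood wholly under WT for 13 of 29 genes or joined rows and wholly over WT for 6. Among all tested rows, 34.9% and 24.4% stood so.

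**Figure D4:**
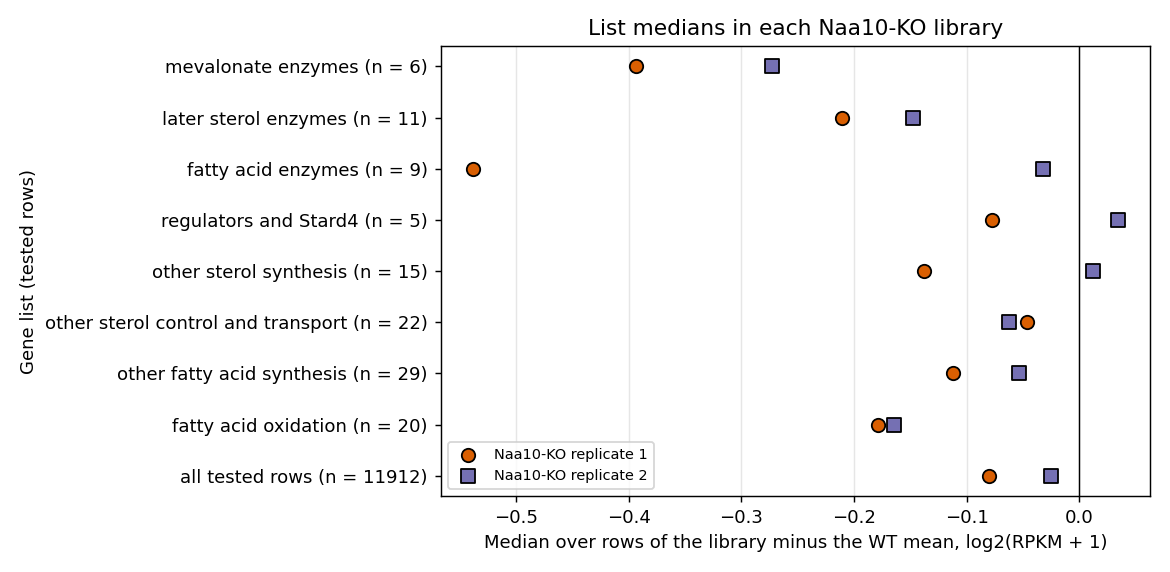
Median over the tested rows of the 8 lists of lipid genes and of all tested rows (the cell type markers are not plotted) of the difference from the WT mean on the log2(RPKM + 1) scale, for Naa10-KO replicate 1 (circles) and replicate 2 (squares); n is the number of tested rows. Of the lists plotted, fatty acid enzymes show the widest gap between the medians of the libraries, from -0.54 to -0.03. The mevalonate and later sterol enzymes lie below the medians of all tested rows in both. So do the fatty acid enzymes, the other fatty acid synthesis genes and the fatty acid oxidation genes.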

How the data were processed

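Poly-dT selected RNA was sequenced on an Illumina instrument, per the labels' protocols. The deposited values are RPKM, per the file headers, in 1 table per library. The submitters' processing notes name Cufflinks, bedtools and the build mm9. Aligner, annotation and tool versions were not given in the sources. All 31 rows of the set were tested and none was at 0 in a library, with values from 2.85 to 125 RPKM; 2 were joined rows.

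Groups came from the sample titles. Differences were tested with limma 3.58.1 (R 4.3.3) on log2(RPKM + 1), two-sided, with a mean-variance trend, on the 11912 rows that reached 1 RPKM in at least 2 libraries, with Benjamini-Hochberg adjustment over all of them and a threshold of 0.05. Folds on this scale are understated for low genes. The fit had 2 residual and 1.94 prior degrees of freedom. The procedure was tested on simulated data. Strand specificity of the libraries is not stated, so reads of overlapping genes may not be told apart. By RefSeq symbols, Acaca overlaps Tada2a and Fdft1 overlaps Ctsb. Srebf1 overlaps Mir6921 and Rai1, and no row was named for Rai1. Relative depth was the most common ratio of values of microRNA and small nucleolar RNA rows. Promoters came from RefSeq (GRCm38.p6), a different build from the values, and were matched by symbol.

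The genes and lists were chosen with earlier results of these data known. Every gene of the set is named. The 6 highest and 6 lowest log2 differences are given in full, and from each other list the 2 genes with the smallest unadjusted p in each direction. Some genes that this rule picks are not reported here. Alternatives changed the pseudocount to 0.1 RPKM, the filter to none or to a mean of 5 RPKM, the scaling, the trend and the rows tested, added a replicate block, or left out each library.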

Additional observations from a re-analysis of the deposited data

How the results depend on the processing

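Between genotypes, 91 of all tested rows passed with limma. That count was 40 without a filter and 0 without rows at 0 and small RNA rows (2624 at an unadjusted p under 0.05, smallest adjusted p 0.0590). With the replicate block it was 44, and 0 of the set passed. The numbers are not stated to pair the libraries: the correlation of same-numbered deviations was -0.21, and the crossed replicate block, chosen after seeing the data, gave 133 rows and 0 of the set. When a library was left out, the single one remaining in that genotype was taken to vary as the other genotype did. The count over all rows then ran from 12 to 7081 and that of the set from 0 to 25, with 0 without either WT library, 18 (5 higher) without Naa10-KO replicate 1 and 25 (3 higher) without Naa10-KO replicate 2. In those last fits 4938 and 7081 of all 11912 tested rows passed. The sterol median log2 difference ran from -0.31 to -0.20, the fatty acid median from -0.54 to -0.032 and the gap between them from -0.17 to 0.23. The gap was -0.17 without Naa10-KO replicate 1 and 0.23 without Naa10-KO replicate 2. Median centring put the sterol median at -0.22 and turned the sign of Mvd (0.043), Sqle (0.012) and Srebf2 (0.044). Leaving out a library turned the sign of Acaca (-0.24 to 0.036), Dhcr7 (-0.93 to 0.00090), Ebp (-0.20 to 0.66), Fads1 (-0.72 to 0.15), Fads2 (-0.19 to 0.49), Mvd (-0.31 to 0.27), Mvk (-0.38 to 0.098), Nsdhl (-0.24 to 0.30) and Srebf2 (-0.077 to 0.035). Genes of the set not listed here kept their sign in every alternative run. The cause of these shifts was not tested. The files hold no read counts, so counting error could not be separated from other spread.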

Other observations

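Genes of fatty acid oxidation, the pathway that runs opposite to fatty acid synthesis, had a lower mean in 16 of 20 tested rows, as had 6831 of all 11912. Both Naa10-KO libraries lay below both WT libraries in 12 of the 20, and in 34.9% of all tested rows. Their median log2 difference from WT was -0.18 and -0.16 in the Naa10-KO libraries. None passed with limma, and 5 were lower at an unadjusted p under 0.05, where 13.2% of all tested rows were. Cpt1a, which carries long-chain fatty acids into mitochondria, had 19.0 and 17.7 RPKM in the WT pair and 12.1 and 11.7 RPKM in the knockout pair (log2 difference -0.58, limma adjusted p = 0.107). Etfa, which passes electrons from the acyl-CoA dehydrogenases onward, had WT levels of 66.9 and 64.7 RPKM and knockout levels of 50.04 and 53.2 RPKM. On the other side, Hadha, of the trifunctional protein, had 36.7 and 35.8 RPKM in WT, compared with 38.1 and 40.6 RPKM in Naa10-KO, and the isomerase gene Eci1 had 22.8 and 23.6 RPKM in the WT pair and 24.5 and 24.7 RPKM in the knockout pair.

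Elovl1, an elongase of saturated fatty acids and chosen here for its values, stood at 17.2 RPKM in Naa10-KO replicate 2, against a listed 0 in the other 3 libraries. An exact 0 in these files can be a failed estimate, so no fold is given.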
